A study of Mus musculus with 6 samples.

Results

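The 33 genes described here repair DNA breaks and damaged bases or signal that such damage is present. They were chosen by gene symbol from a fixed list, and 32 of the 33 had a usable row in the deposited table, out of 44804 usable rows. Fanca was not analysed here. RNA was sequenced from 6 cells of the mice 1157, 1168 and PDGF1. From each animal came 1 CTC (circulating tumor cell, a tumor cell in blood) and 1 tumor cell, whose sample titles carry the letters GBM, a common short form of glioblastoma. For the CTCs the sample labels use the word single-cell, for the tumor cells only the series text does, and the labels name no genotype, driver, age or treatment for any of the mice. Levels are in FPKM, a fragment level scaled to transcript length and library size. The evenness of reads along transcripts after amplification was not examined, so comparisons between genes of unequal length carry that limit. Where a group has 3 values, they are those of mice 1157, 1168 and PDGF1 in this order.

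DNA breaks are sensed by large kinases, ATM at double-strand breaks and ATR at stretches of single-stranded DNA, which pass the signal to the checkpoint kinases CHK2 and CHK1. Double-strand breaks are then joined directly by end joining or copied from the sister chromatid by homologous recombination, a route used mainly in dividing cells after DNA replication. Damaged bases are removed by base excision repair, and bulky or ultraviolet-type lesions by nucleotide excision repair. In gliomas these pathways are of interest because radiation and alkylating drugs act through DNA damage.

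The cells of mouse 1168 stood apart from the other 4 in content. Their FPKM summed to 727351 (CTC) and 615548 (tumor cell), against 46973 to 236427 in the others, and 85.0% and 71.8% of it lay in named protein-coding genes. Of 14 markers of glioma cells and oligodendrocyte progenitors, 13 were at 1 FPKM or more in the CTC of mouse 1168 and 11 in its tumor cell. The CTC of mouse 1157 had 5 at this level and its tumor cell 4, and the cells of mouse PDGF1 had 0 each. Of 20 leukocyte and myeloid markers, 6 were at 1 FPKM or more in the CTC of mouse 1168 and 18 in its tumor cell, with summed levels of 247 and 2820 FPKM. In the other 4 cells 1 to 6 of them were, with sums from 4.09 to 26.2 FPKM. Endothelial markers summed to 20.4 FPKM at most and red cell and platelet markers to 68.3 FPKM at most in any cell.

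Many repair genes share a promoter region with a neighbour that is read in the other direction. Of the 32 genes, 10 had a protein-coding neighbour on the other strand that started within 1000 bases upstream without overlapping, which is 31.2% of them, against 7.05% of 18754 named protein-coding genes (GENCODE release M21 on GRCm38). The stretches between the starts of 4 such pairs are shown, because the levels of their genes are set side by side further on. They are the parts of RefSeq promoter windows (GRCm38.p6) that no annotated exon covers, each read 5′ to 3′ in the direction of the repair gene. Capitals mark CCAAT boxes (CCAAT) and an E2F motif, on either strand, and none of the marked motifs overlap.
Chek2, chr5:110839778-110839978 (plus strand): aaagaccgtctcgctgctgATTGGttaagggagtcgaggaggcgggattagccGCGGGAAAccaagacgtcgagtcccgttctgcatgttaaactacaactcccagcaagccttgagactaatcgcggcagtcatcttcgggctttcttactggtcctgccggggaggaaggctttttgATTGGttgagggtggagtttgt
Brca1, chr11:101551956-101552148 (minus strand): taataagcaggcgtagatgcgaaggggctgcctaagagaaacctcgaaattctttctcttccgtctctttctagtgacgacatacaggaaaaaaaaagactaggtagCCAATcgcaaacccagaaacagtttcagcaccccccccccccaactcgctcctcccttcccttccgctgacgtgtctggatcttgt
Apex1, chr14:50924894-50924948 (plus strand): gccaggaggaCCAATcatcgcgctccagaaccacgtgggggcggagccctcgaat
Lig4, chr8:9977687-9977706 (minus strand): ttcatgctacggtagcccgt
The first lies between Chek2 and Hscb, the second between Brca1 and Nbr1, the third between Apex1 and Osgep and the fourth, with no marked motif, between Lig4 and Abhd13. RefSeq windows were found for 22 of the 32 genes, 25 windows in all, and the 250 bases before each start were searched. An E2F motif (TTTCCCGC, TTTGGCGC or TTTCGCGC, on either strand) was present in 3 of the 25 windows, those of Chek2, Brca2 and Xrcc6, or 12%, against 1.53% of all 32851 windows. A GC box (GGGCGG) was in 56.0% against 32.7%, an ETS motif (CCGGAAG) in 16.0% against 6.91%, a CCAAT box in 40.0% against 33.8% and a TATA box (TATAAA) in 4.0% against 12.4%. A match to these letters is a description of the sequence and not a measured binding site.

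As deposited, repair genes were high mostly in mouse 1168. At 1 FPKM or more were 6, 22 and 2 of the 32 genes in CTCs and 11, 25 and 7 in tumor cells. For 27 of the 32 genes the highest of the 6 values was in a cell of mouse 1168, or for 10 of the 32 after rescaling each cell to the same FPKM sum. No such share over all genes is given here. Neither these counts nor those of single pathways below can thus be read as particular to repair genes. The CTC had fewer repair genes at this level than the tumor cell in 3 of 3 mice. The mean was 10 ± 10.6 in CTCs and 14.3 ± 9.45 in tumor cells (SD, n = 3 each), a difference of -4.33 smaller than the spread within each group (exact permutation test, two-sided, p = 0.5, with 0.1 the smallest possible). Paired by mouse, the difference of -4.33 had an SD of 1.15 over the 3 mice (exact paired test, p = 0.25, the smallest that 3 pairs allow). Without the tumor cell of mouse 1168, which leaves the CTC of that mouse unpaired, the difference was 1.0 in the other direction. With 5 FPKM as the level it was 1.33, also higher in CTCs. Without both cells of mouse 1157, 1168 or PDGF1 the difference at 1 FPKM was -4.0, -5.0 and -4.0, in this order. With each cell rescaled to a sum of 1000000, the counts were 17, 23 and 13 in CTCs and 25, 28 and 24 in tumor cells. Much of the gap in this count at 1 FPKM between mouse 1168 and the others thus depended on the scaling. Rescaled to the mean sum of the 6 cells the counts were 6, 20 and 4 in CTCs and 16, 19 and 16 in tumor cells. The CTC was then not the lower cell in mouse 1168.

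Named protein-coding genes showed the same order of cells. At 1 FPKM or more were 10.3%, 43.1% and 4.85% of them in CTCs and 16.0%, 49.8% and 10.3% in tumor cells. The share of repair genes was 18.8%, 68.8% and 6.25% in the CTCs and 34.4%, 78.1% and 21.9% in the tumor cells. In each of the 6 cells the share was thus above that of protein-coding genes as a whole. The plot of detected shares sets these percentages side by side.

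**Figure D1:**
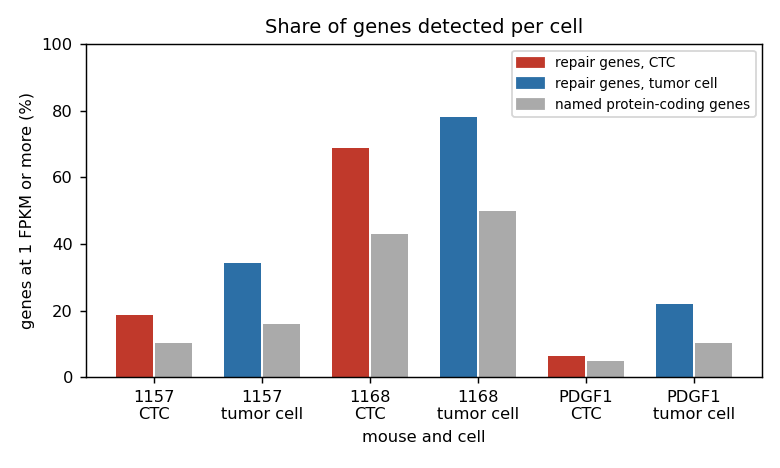
Share of genes at 1 FPKM or more in each cell (vertical axis, percent), with the repair genes (32) in red for CTCs and blue for tumor cells and all named protein-coding genes (18754) in grey. The repair genes reach 68.8% (CTC) and 78.1% (tumor cell) in mouse 1168 and at most 34.4% in the other 4 cells.

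A measure of background came from 1445 smell and pheromone receptor genes, normally silent outside the nose. Their 99th percentile was 0.77, 0.15 and 2.7 FPKM in CTCs and 1.95, 1.27 and 7.1 FPKM in tumor cells. Above it were 6, 28 and 0 of the 32 repair genes in CTCs and 5, 24 and 1 in tumor cells, beside 13.2%, 53.2% and 2.29% of protein-coding genes in CTCs and 7.71%, 47.1% and 1.44% in tumor cells. The gene above it in the tumor cell of mouse PDGF1 was Tdp1. No repair gene of the CTC of mouse PDGF1 lay above that level. These counts set genes against others of the same cell, so rescaling a cell to another FPKM sum leaves them unchanged. They were highest in both cells of mouse 1168.

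**Figure D2:**
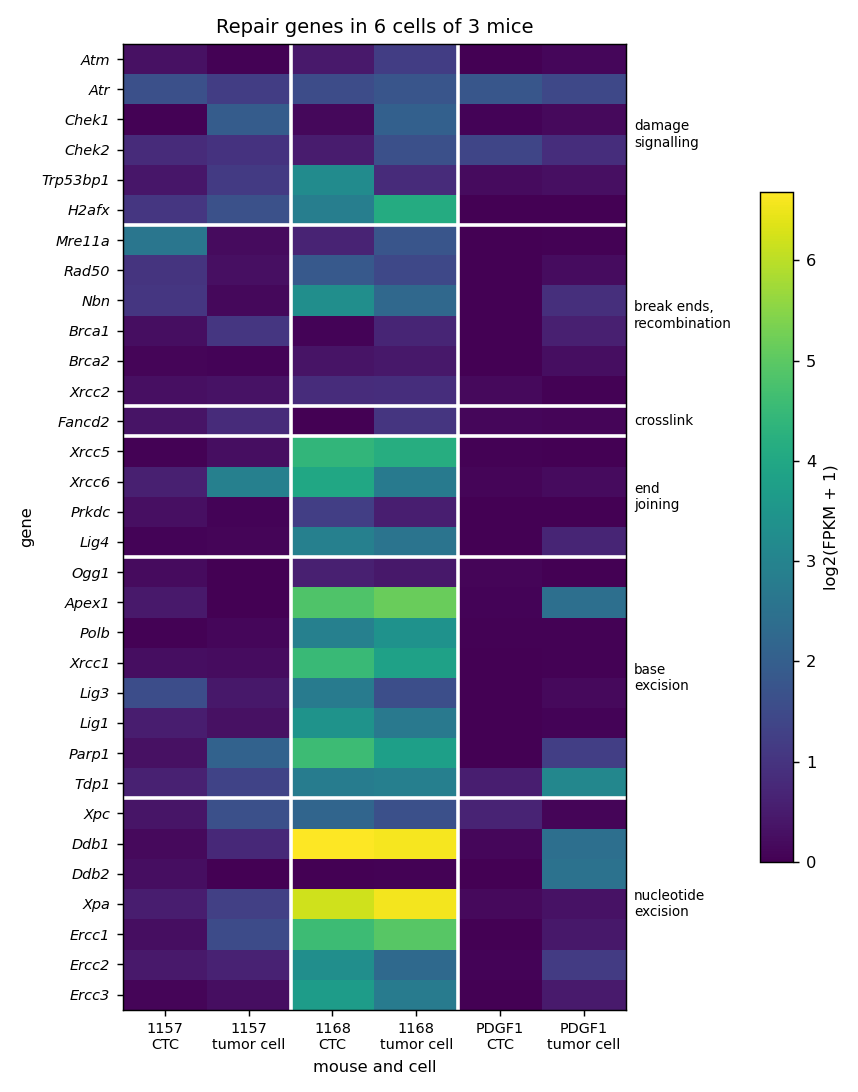
Level of each repair gene (rows, grouped by role) in each cell (columns, CTC left of the tumor cell of the same mouse) as log2(FPKM + 1). The cells of mouse 1168 hold the bright rows, led by Ddb1 at 102 and 96.3 FPKM, while Atr is the only row above 1 FPKM in all 6 cells as deposited.

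Over the 3 mice, no repair gene passed the test of CTCs against tumor cells. The test took the 14 repair genes that reached 1 FPKM in 3 or more cells, and 0 passed (limma on log2(FPKM + 1), Benjamini-Hochberg adjusted over 4165 genes). None of the 4165 genes passed either (0 called, 0.0%), with 7 at an unadjusted p under 0.05, of which 0 were repair genes. With the mouse as a block 1 gene of 4165 passed (0.024%), and again 0 repair genes. Only 1 of the 14 would have met the filter without mouse 1168. The log2 differences of the 14 ran from -1.12 to 0.72, with SEs from 0.7 to 2.74, and 4 were positive and 10 negative, or 1 and 13 after rescaling to equal sums, an alternative chosen for these signs after seeing the data. Their median was -0.41, beside -0.06 for all genes tested. Within mice 1157, 1168 and PDGF1 that median was -0.59, 0.25 and -0.32, so the sign differed between mice.

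**Figure D3:**
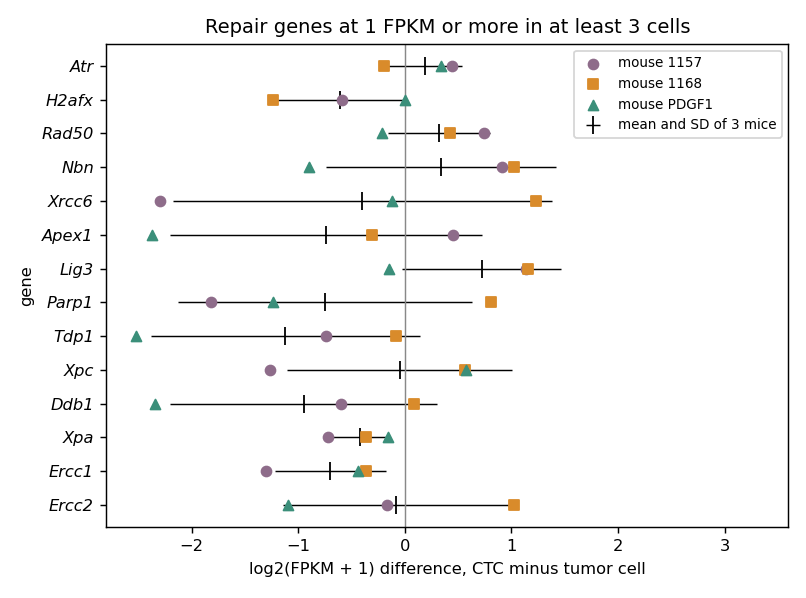
Log2(FPKM + 1) difference, CTC minus tumor cell, within each mouse (horizontal axis) for the 14 repair genes that reach 1 FPKM in 3 cells or more, with the mean and SD of the 3 mice as a tick and bar. Ercc1, Tdp1 and Xpa lie left of 0 in all 3 mice, in mouse 1157 with levels below the receptor gene background. For Xrcc6 the values run from -2.3 in mouse 1157 to 1.23 in mouse 1168.

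Among the damage kinases, Atr had a nearly even deposited level in the 6 cells, which held only in the deposited scaling. It was at 2.12, 1.94 and 2.46 FPKM in CTCs and at 1.3, 2.38 and 1.73 FPKM in tumor cells. Atr was the single repair gene at 1 FPKM or more in all 6 cells, as were 173 genes of the whole table. The groups overlapped, and the log2 difference was 0.19 (SE 1.51, adjusted p = 0.9999, limma). After rescaling to a sum of 1000000 Atr was at 8.97, 2.67 and 52.3 in CTCs and at 16.2, 3.87 and 33.8 in tumor cells, highest in mouse PDGF1. The SE above follows the trend over all genes, and the residual SD of Atr itself as deposited was 0.21, which 4 of the 4165 tested genes, Atr included, equalled or undercut. The median gene had 1.88, and the other 13 repair genes tested ran from 0.82 to 3.41. In the tumor cell of mouse 1157 and in both cells of mouse PDGF1 the Atr level was below the receptor gene background defined above. Atm, the kinase of double-strand breaks, was at 0.241, 0.379 and 0.00236 FPKM in CTCs and at 0.026, 1.3 and 0.0902 FPKM in tumor cells.

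Chek1 and Brca1 were the 2 repair genes whose CTC values all lay below the tumor cell values. Chek1, the checkpoint kinase that acts downstream of ATR, was at 0.0188, 0.114 and 0.0386 FPKM in CTCs against 2.83, 3.16 and 0.124 FPKM in tumor cells. Brca1, which acts in homologous recombination, was at 0.183, 0.0395 and 0 (listed at 0) FPKM in CTCs against 1.1, 0.616 and 0.512 FPKM in tumor cells. These were 2 of the 29 repair genes that reached 1 FPKM in any cell (6.9%), beside 2.89% of all 16193 such genes with CTCs below, and a count this small cannot be read as a difference from that share. No repair gene (0 of 29) had all CTCs above all tumor cells, beside 0.296% of all genes. Among the 14 genes tested, 0 had CTCs all above and 0 all below, beside 0.264% and 1.3% of the 4165. Neither Chek1 nor Brca1 met the filter of the test, and both kept the order of groups under either rescaling. The Brca1 levels of all 3 tumor cells and the Chek1 level of the tumor cell of mouse PDGF1 were below the receptor gene background.

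The levels of the other signalling genes differed between mice. Chek2, the checkpoint kinase downstream of ATM, was at 0.757, 0.425 and 1.64 FPKM in CTCs and at 0.968, 2.09 and 0.84 FPKM in tumor cells. Its level was lower in the CTC of mouse 1168. In mouse PDGF1 it was higher in the CTC, but both values were below the receptor gene background, so no direction can be read there. H2afx, which encodes the histone variant that is phosphorylated around breaks, was at 1.09, 6.28 and 0 FPKM in CTCs against 2.13, 16.2 and 0 FPKM in tumor cells. Trp53bp1, whose protein gathers at breaks and favours end joining, was at 0.322, 8.35 and 0.148 FPKM in CTCs against 1.19, 0.781 and 0.212 FPKM in tumor cells. The high value was that of a single cell, the CTC of mouse 1168. Trp53bp1 overlaps Tubgcp4 on the other strand, and Tubgcp4 was at 4.85 FPKM in that CTC and 8.42 FPKM in the tumor cell of mouse 1168.

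Among the genes that hold and process broken ends, the 3 parts of the MRN complex differed in direction. Mre11a, its nuclease, was at 5.22, 0.576 and 0.00849 FPKM in CTCs against 0.145, 2.38 and 0.0266 FPKM in tumor cells. Rad50, which tethers the ends, was at 1.02, 2.63 and 0.00935 FPKM in CTCs and at 0.207, 1.72 and 0.164 FPKM in tumor cells. Nbn, which recruits ATM, was at 1.08, 8.8 and 0.00991 FPKM in CTCs and at 0.111, 3.82 and 0.883 FPKM in tumor cells. All 3 were thus higher in the CTC of mouse 1157, while in mouse 1168 Mre11a went the other way from Rad50 and Nbn. In mouse PDGF1 all 3 were under 1 FPKM and below the receptor gene background in both cells, so no direction can be read there. Brca2, which acts in homologous recombination, was at 0.354 FPKM or less and Xrcc2, of the same pathway, at 0.848 FPKM or less in each of the 6 cells. Fancd2, the central factor of crosslink repair, was at 0.286, 0.00592 and 0.0932 FPKM in CTCs against 0.779, 1.05 and 0.065 FPKM in tumor cells. Each of these levels was below the receptor gene background of its cell.

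All 4 end joining genes had their highest deposited level in mouse 1168, and 2 of the 4 after rescaling to equal sums, when Xrcc6 was highest in the tumor cell of mouse 1157 and Lig4 in that of mouse PDGF1. Xrcc5 and Xrcc6 encode Ku80 and Ku70, the ring that grips a broken end. Xrcc5 was at 20 FPKM in the CTC and 17 FPKM in the tumor cell of mouse 1168 and at 0.182 FPKM or less in the other 4 cells. Xrcc6 was at 0.514, 14.8 and 0.0617 FPKM in CTCs against 6.47, 5.71 and 0.151 FPKM in tumor cells. In the tumor cell of mouse 1157 Xrcc6 was thus high beside a partner at 0.182 FPKM. Lig4, the ligase that seals the ends, was at 6.57 FPKM in the CTC and 4.9 FPKM in the tumor cell of mouse 1168, and Prkdc, the kinase recruited by Ku, at 1.35 and 0.473 FPKM. All 4 end joining genes were higher in that CTC than in that tumor cell, by 0.23 to 1.23 on the log2 scale, and 1 of the 4 by at least 1. After rescaling to equal sums 3 of the 4 were higher.

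Base excision and single-strand break repair was led in mouse 1168 by Apex1, Parp1 and Xrcc1. Apex1, the nuclease that cuts at a site without a base, was at 0.366, 27.6 and 0.0549 FPKM in CTCs against 6.51e-05, 34.4 and 4.46 FPKM in tumor cells. Parp1, which senses nicks, was at 0.222, 23.2 and 0.0063 FPKM in CTCs against 3.32, 12.8 and 1.38 FPKM in tumor cells. It was lower in the CTC in mouse 1157 and higher in mouse 1168. In mouse PDGF1 it was also lower in the CTC, but both values were below the receptor gene background. Xrcc1, the scaffold of this pathway, was at 0.187, 22.2 and 0 FPKM in CTCs against 0.176, 13.1 and 0.0247 FPKM in tumor cells.

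The ligases and end-cleaning genes of this pathway were at lower levels than these 3 in mouse 1168. Lig3, the ligase partner of XRCC1, was at 2, 5.84 and 0.0141 FPKM in CTCs against 0.359, 2.05 and 0.122 FPKM in tumor cells, the largest positive difference of the 14 tested genes at 0.72 (SE 0.98, adjusted p = 0.9999, limma). Lig1, the ligase of replication and long-patch repair, was at 0.452, 9.85 and 0.00835 FPKM in CTCs against 0.238, 5.55 and 0.0555 FPKM in tumor cells. Tdp1, which removes trapped topoisomerase I from DNA, was at 0.528, 6.04 and 0.481 FPKM in CTCs against 1.56, 6.45 and 7.51 FPKM in tumor cells. Its log2 difference of -1.12 was the most negative of the 14 (SE 1.84, adjusted p = 0.9999, limma). That SE follows the trend over all genes, and the residual SD of Tdp1 itself was 1.13. The DNA polymerase gene Polb was at 6.48 FPKM in the CTC and 9.71 FPKM in the tumor cell of mouse 1168. Ogg1, the glycosylase for oxidised guanine, was at 0.491 FPKM or less in each of the 6 cells.

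Nucleotide excision repair held the 2 repair genes of highest FPKM. Ddb1, a subunit of the ultraviolet damage sensor and of a ubiquitin ligase with many other targets, was at 0.129, 102 and 0.082 FPKM in CTCs against 0.712, 96.3 and 4.47 FPKM in tumor cells. Xpa, which verifies the lesion, was at 0.458, 72.3 and 0.12 FPKM in CTCs against 1.41, 93.2 and 0.254 FPKM in tumor cells. Within mouse 1168 these levels lay at the 96.2 and 94.8 percentiles of protein-coding genes in the CTC for Ddb1 and Xpa and at the 96.9 and 96.8 percentiles in the tumor cell. Both genes overlap a protein-coding gene on the other strand. Ddb2, the partner of Ddb1 in damage sensing, was far below it in mouse 1168, at 1.57e-19 FPKM in the CTC and 0.0361 FPKM in the tumor cell. Its highest level was 4.75 FPKM, in the tumor cell of mouse PDGF1, where Ddb1 was at 4.47 FPKM. Both were below the receptor gene background of that cell, 7.1 FPKM.

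The remaining excision genes, Ercc1, Ercc2, Ercc3 and Xpc, had their highest deposited level in mouse 1168. Among tumor cells Xpc was about as high in mouse 1157 as in mouse 1168. Ercc1, part of the nuclease that cuts on the 5′ side of the lesion, was at 0.178, 23 and 0 FPKM in CTCs against 1.89, 29.7 and 0.359 FPKM in tumor cells. It was lower in the CTC in 3 of 3 mice, as were Tdp1 and Xpa, which makes 3 of the 14 tested genes (21.4%) beside 15.3% of all 4165. In mice 1157 and PDGF1 the levels of Ercc1 and Xpa were below the receptor gene background in both cells. Those of Tdp1 were in mouse 1157, and in mouse 1168 its difference was -0.08. For Ercc1 the log2 difference of -0.70 was smaller than the SE of the test (1.91, adjusted p = 0.9999, limma). Its own residual SD was 2.47. Ercc2 and Ercc3 encode helicases of TFIIH, the factor that opens DNA in repair and in transcription. Ercc2 was at 0.372, 8.9 and 0.0503 FPKM in CTCs against 0.548, 3.88 and 1.24 FPKM in tumor cells. Ercc3 was at 0.0581, 11.9 and 0.00922 FPKM in CTCs against 0.18, 5.89 and 0.395 FPKM in tumor cells. Xpc, which recognises the distorted helix, was at 0.289, 3.53 and 0.59 FPKM in CTCs against 2.12, 2.08 and 0.074 FPKM in tumor cells.

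Within mouse 1168, the repair genes lay on both sides. Of 27 genes at 1 FPKM or more in either cell, 5 had a CTC value higher by 1 or more on the log2(FPKM + 1) scale and 5 a lower one, with 17 in between and a median of 0.23. The shares of 18.5% in each direction compare with 22.7% higher and 24.9% lower over all 12396 genes measured in that mouse, whose median was 0.04. The 5 higher genes were Trp53bp1 at 2.39, Xrcc6 at 1.23, Lig3 at 1.16, Nbn at 1.02 and Ercc2 at 1.02. The 5 lower genes were Chek1 at -1.9, H2afx at -1.24, Chek2 at -1.12, Mre11a at -1.1 and Fancd2 at -1.03. Both Fancd2 values were below the receptor gene background, so no direction can be read for that gene. Of the 6 signalling genes 5 had a negative difference, with a median of -0.93, and the 4 end joining genes were all positive as deposited, beside 48.8% negative and 51.2% positive of all genes measured. In mouse PDGF1 both measured signalling genes were positive, with all their values below the receptor gene background. In the wider list described further on, 6 of 12 signalling genes were negative in mouse 1168. This compares 1 cell with 1 other and has no replicate check. With FPKM rescaled to a sum of 1000000 in each cell, 3 of 29 were higher and 6 lower. Over all genes 18.3% were higher and 32.3% lower, with a median of -0.27. With 5 FPKM as the level 5 were higher and 1 lower, so the balance depended on both choices. No share of all genes at 5 FPKM is given here, so that balance cannot be set against the whole table.

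**Figure D4:**
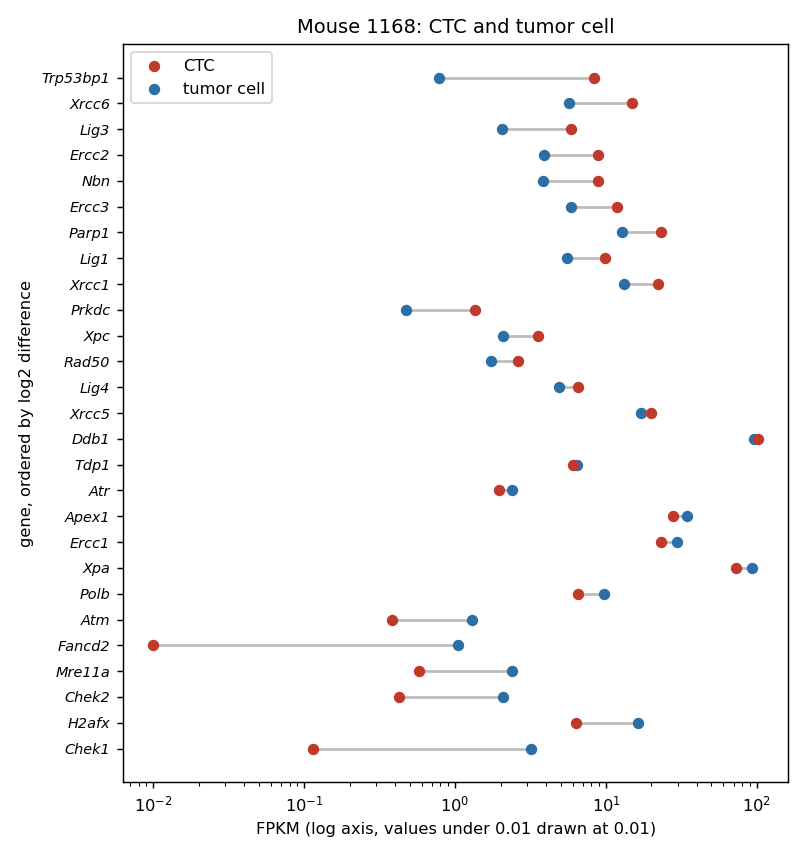
FPKM of the 27 repair genes at 1 FPKM or more in either cell of mouse 1168 (horizontal log axis), ordered by their log2 difference, with the CTC in red and the tumor cell in blue. Trp53bp1 at the top is at 8.35 FPKM in the CTC and 0.781 FPKM in the tumor cell, and Chek1 at the bottom at 0.114 and 3.16 FPKM.

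Of 20 genes of DNA replication and mitosis, 14 (CTC) and 20 (tumor cell) were at 1 FPKM or more, with sums of 232 and 352 FPKM. Among them 1 was higher in the CTC by at least 1, 9 were lower and 10 lay in between, with a median of -0.84, beside the 22.7% higher and 24.9% lower of all genes. Leukocyte and myeloid markers were lower in that CTC by at least 1 for 16 of 18 measured and higher for 0, with the sums given above. Mitochondrially encoded protein genes, which follow RNA quality, were lower by at least 1 for 5 of 13 and higher for 0, with sums of 6860 and 13800 FPKM. Their part in the differences of Chek1, H2afx, Chek2, Mre11a and Fancd2 was not tested.

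In the other mice few repair genes could be compared. In mouse 1157, 15 were at 1 FPKM or more in either cell, of which 2 had a CTC value higher by 1 or more (Mre11a at 2.44 and Lig3 at 1.14) and 5 lower (Xrcc6, Chek1, Parp1, Ercc1 and Xpc, from -2.3 to -1.27). Over all genes of that mouse 29.0% were higher and 37.1% lower. In mouse PDGF1, 8 were measured, with 0 higher and 6 lower (Tdp1, Ddb2, Apex1, Ddb1, Parp1 and Ercc2, from -2.52 to -1.1), beside 23.7% and 59.9% of all genes. Only Tdp1, in the tumor cell, lay above the receptor gene background there, so no direction can be read for the others. Of the 3 repair genes measured in every mouse, 0 were higher by 1 or more throughout and 0 lower, beside 1.33% and 2.85% of 1052 genes. In mouse PDGF1, 12 of 12 measured mitochondrially encoded protein genes had a CTC value lower by 1 or more, with sums of 27 and 1240 FPKM. In mouse 1157 they were higher for 5 of 8 and lower for 1, with sums of 86.1 and 24.2 FPKM. Their part in the repair gene differences of these mice was not tested.

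The neighbours that share a promoter region with a repair gene mostly had a difference of the other sign in mouse 1168. In 8 such pairs both genes were at 1 FPKM or more in either cell, and in 7 of the 8 their differences had opposite signs, beside 190 of 396 divergent pairs of protein-coding genes measured in that mouse (48.0%). After rescaling to equal sums it was 6 of 8, because the difference of Hscb changed sign. As deposited that of Hscb was 0.1 and that of Tdp1, paired with Efcab11 at 1.08, was -0.08. The opposite signs of these pairs thus rest on values near 0. The pattern was noticed in these data and was not tested. Hscb, a factor of iron-sulfur cluster assembly, was at 45.9 FPKM in the CTC and 42.7 FPKM in the tumor cell, while Chek2 across the interval shown was at 0.425 and 2.09 FPKM. Emc3, a subunit of a membrane insertion complex, was at 51.1 and 23.9 FPKM, and Fancd2, whose start lies 30 bases away, at 0.00592 and 1.05 FPKM. Both Fancd2 values were below the receptor gene background, so the opposite sign of this pair cannot be read as a direction. Osgep was at 42.1 FPKM in the CTC and 20.5 FPKM in the tumor cell, with Apex1 at 27.6 and 34.4 FPKM.

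The pair of Lig4 and Abhd13, 21 bases apart, was the one in which both genes had the same sign, with Abhd13 at 5.18 FPKM in the CTC and 4 FPKM in the tumor cell. Mcm4, a subunit of the replicative helicase, was at 5.31 and 17.9 FPKM, and Prkdc, which starts 466 bases away, at 1.35 and 0.473 FPKM. In the pair of Brca1 and Nbr1 the autophagy receptor gene Nbr1 was at 28.5 FPKM in the CTC and 24.3 FPKM in the tumor cell of mouse 1168, where Brca1 was under 1 FPKM in both. These values compare 2 libraries only.

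**Figure D5:**
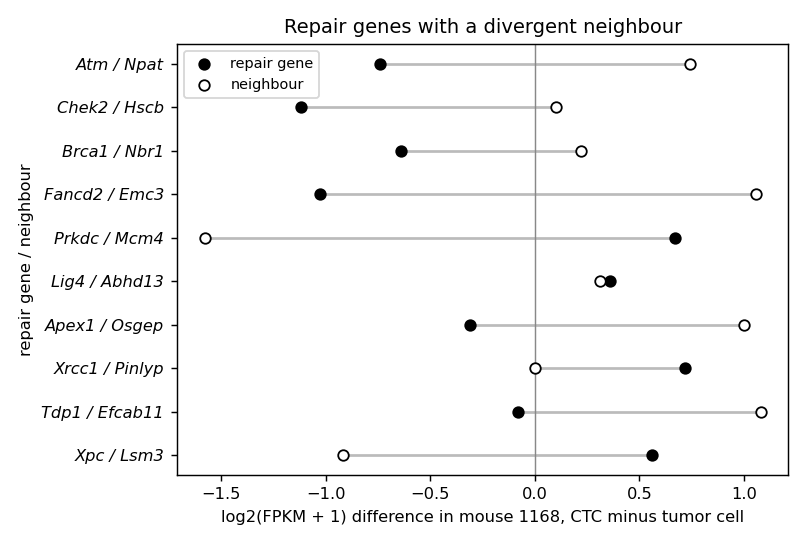
Log2(FPKM + 1) difference, CTC minus tumor cell, within mouse 1168 (horizontal axis) for the 10 repair genes with a divergent protein-coding neighbour (filled points) and for that neighbour (open points). Fancd2, with both values below the receptor gene background, lies at -1.03 and Emc3 at 1.06, while Lig4 and Abhd13 lie together at 0.36 and 0.31.

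Overlap with genes on the other strand limits some of these levels. Of the 32 repair genes, 13 overlap a protein-coding gene on the other strand in the annotation, among them Ercc1 with Cd3eap, Xpa with Ncbp1 and Mre11a with Ankrd49. Cd3eap was at 29.5 FPKM in the CTC and 2.48 FPKM in the tumor cell of mouse 1168, where Ercc1 was at 23 and 29.7 FPKM. The libraries were stranded, per the labels' protocols, but the sources used here do not state whether the counting used strand. Without it reads of the 2 genes cannot be told apart where they overlap.

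In a wider list of 80 other repair genes, the highest deposited value was in a cell of mouse 1168 for 66, and for 37 after rescaling to equal sums. These counts, too, have no share over all genes beside them. Of the 80, 27 were tested, and 0 passed (limma, adjusted over 4165 genes), with 11 positive and 16 negative differences and a median of -0.10. Among those with the smallest p were Rad1, Rad51d and Topbp1. Rad1, a part of the checkpoint clamp, was at 0.623, 0.56 and 0.0291 FPKM in CTCs against 1.86, 3.37 and 1.55 FPKM in tumor cells, and its groups did not overlap. Its log2 difference was -1.20 (SE 0.94, adjusted p = 0.9999, limma). This SE follows the trend over all genes, and the residual SD of Rad1 itself was 0.39. Topbp1, the activator of ATR, was at 1.18, 0.657 and 0.293 FPKM against 2.19, 4.24 and 0.307 FPKM, lower in 3 of 3 mice and in 2 of 3 after rescaling. Rad51d, which acts in homologous recombination, was higher in the CTC in 3 of 3 mice, at 0.271, 6.35 and 1.72 FPKM against 0.171, 2.42 and 0.224 FPKM, and in 2 of 3 after rescaling. In mouse 1157 the levels of Rad1 and Rad51d were below the receptor gene background in both cells. In mouse PDGF1 those of Rad1, Rad51d and Topbp1 were, so no direction can be read in these cases. Of all 4165 genes tested, 1.3% had all CTCs below all tumor cells and 15.3% were negative in all 3 mice.

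Within mouse 1168, 63 of the 80 were measured, of which 17 had a CTC value higher by 1 or more and 17 a lower one, with a median of 0.16. Among the largest differences were those of Exo1, Ube2t, Ung, Neil1 and Nthl1. Lower in the CTC were Exo1, a nuclease that resects broken ends, at 0.058 FPKM against 11.1 FPKM in the tumor cell, and Ube2t, the ubiquitin-conjugating enzyme that acts on FANCD2, at 2.21 against 34.6 FPKM. Ung, the uracil glycosylase, was at 0.0902 FPKM in the CTC against 10.4 FPKM in the tumor cell. Higher in the CTC were the glycosylase genes Neil1, at 13.3 against 0.924 FPKM, and Nthl1, at 8.29 against 0.64 FPKM. Genes of base excision repair thus lay on both sides. By role, 5 of 14 measured genes of nucleotide excision repair had a CTC value higher by 1 or more and 0 a lower one. Of 15 genes of homologous recombination 3 were higher and 6 lower, and of 12 signalling genes 1 was higher and 4 lower, beside 22.7% and 24.9% of all genes.

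Targets of p53, the transcription factor that responds to DNA damage, were found in both cells of mouse 1168. Of 23 listed, 18 (CTC) and 21 (tumor cell) were at 1 FPKM or more, beside 43.1% and 49.8% of protein-coding genes. Of 22 measured, 7 had a CTC value higher by 1 or more (31.8%) and 6 a lower one (27.3%), beside 22.7% and 24.9% of all genes. Counts this small cannot be read as a difference from those shares. Higher in the CTC were the death receptor gene Fas at 11 against 1.61 FPKM, Bax, an effector of apoptosis, at 35.8 against 8.83 FPKM, Eda2r at 10.5 against 2.3 FPKM and the nuclease gene Aen at 7.56 against 1.6 FPKM. Lower in the CTC were Btg2 at 0.0124 against 2.37 FPKM and the phosphatase gene Ppm1d at 0.49 against 3.53 FPKM. Over the 3 mice 10 targets were tested, and 0 passed (limma), with 6 positive and 4 negative differences. In mouse PDGF1 0 (CTC) and 3 (tumor cell) of the 23 reached 1 FPKM.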

How the data were processed

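RNA was amplified linearly from 6 mouse cells, made into stranded mRNA libraries and sequenced, per the labels' protocols. The authors deposited FPKM for 45038 rows. Cufflinks 2.2.1, STAR 2.4.2a and build GRCm38 are listed in the submitters' processing notes, while the handling of reads that match several genes is not stated in the sources used here. Read counts and depth are unknown, so no counting interval is given.

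Rows with a date in place of a name (27) or a repeated name (207) were left out, leaving 44804. CTCs (3 cells) and tumor cells (3 cells) were compared on log2(FPKM + 1) by limma 3.58.1 (R 4.3.3, trended prior), over genes that reached 1 FPKM in 3 cells or more. Two-sided p-values were adjusted by Benjamini-Hochberg and called under 0.05. Folds on this scale understate the change of low genes. On simulated data for this comparison over 4165 genes, with a spread of 0.3 it recovered 100% of genes changed by 2 and by 4. With the spread of these cells, 1.88, it recovered 0% and 8%. Within a mouse, genes at 1 FPKM or more in either cell were counted at a log2 difference of at least 1, with no test.

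All 32 members are named, with every value for those tested, those whose groups did not overlap and up to 10 per mouse of largest difference at 5 FPKM or more. Other repair genes were named by smallest p (4) and by difference in mouse 1168 (6), and p53 targets in the same way (6), and some genes that these rules name are not reported here. Neighbours were named after their values were seen. Members and lists were chosen with earlier results of these data known. The mouse pairs the cells by label. The correlation of the deviations of paired cells from their group means, over genes, was 0.178 for mouse 1157, 0.689 for 1168 and 0.428 for PDGF1. Other steps used scipy 1.17.1, pandas 2.3.3, numpy 2.4.6, matplotlib 3.10.9 and Python 3.11.15.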

Additional observations from a re-analysis of the deposited data

How the results depend on the processing

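The count of 0 repair genes past the threshold held under each of the 14 alternatives, among them other filters, a pseudocount of 0.1, quantile normalization and leaving out cells or mice. With the mouse as replicate block 1 gene of the table passed in place of 0, and 0 repair genes. The median difference of the repair genes tested, -0.41, ran from -1.62 to 0.15 without one cell and was 0.39 without mouse 1168, where 1 gene was left. The mean difference in detected genes, -4.33, was 1.33 at 5 FPKM and ran from -10.3 to 1.0 without one cell. Without both cells of a mouse it ran from -5.0 to -4.0. Fully separated repair genes among those tested were 0 above and 0 below, with 2 below without the filter, from 0 to 1 above and 0 to 2 below without one cell, 1 above without mouse 1168 and 1 below without mouse 1157.

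Counts within mice were small and moved with the setting. At 5 FPKM there was 1 higher and 1 lower in mouse 1157, 5 higher and 1 lower in mouse 1168 and 0 higher and 1 lower in mouse PDGF1. For this level neither the number measured nor the share of all genes is given here. A pseudocount of 0.1 gave 4 higher and 9 lower of 15 in mouse 1157, beside 34.9% and 51.5% of all genes. Rescaling to a sum of 1000000 gave 17 lower of 27 measured in mouse 1157, beside 63.4% of all genes. It gave 3 higher of 29 in mouse 1168, beside 18.3%. In mouse PDGF1 it gave 4 higher and 15 lower of 26, beside 23.9% and 52.6%. Rescaling to the mean sum of the cells, chosen after seeing the data, gave 1 higher in each mouse and 14, 2 and 11 lower. These were of 19, 23 and 17 measured in mice 1157, 1168 and PDGF1. Of all genes 12.1%, 17.5% and 22.6% were higher and 63.2%, 22.2% and 56.4% lower. The cause of these shifts was not tested. With sums of 1000000 the medians of all genes were -1.42, -0.27 and -1.1 in mice 1157, 1168 and PDGF1, against -0.62, 0.04 and -1.18 as deposited. The depth of each cell is unknown, and 3 cells against 3 with this spread limit what the test can find.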
